A study of Rattus norvegicus with 30 samples.

Results

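Ttr, Folr1, Kl, Clic6, Aqp1, Enpp2, Otx2, Prlr and Sostdc1 are 9 genes used as markers of the choroid plexus, and they were followed in every library as a check of the hippocampal dissection. They were taken by symbol as known markers, and all 9 had a row among the 17455 genes counted. The series holds 30 polyA RNA libraries of snap-frozen rat dorsal hippocampus, 15 labelled alzheimer (the TgF344-AD line) and 15 labelled wildtype. TgF344-AD rats express mutant human APP from a mouse prion promoter, so the transgene is not limited to a single cell type. Rats were fed standard chow or a western diet.

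The 8 groups are male_wildtype_chow, male_wildtype_western, male_alzheimer_chow and male_alzheimer_western, and the same 4 combinations in females. The 2 female western groups have 3 libraries each and the other groups have 4, and the labels divide the libraries into 2 cohorts (14 in cohort 1 and 16 in cohort 2). Replicate numbers are the running numbers of the titles, from 1 to 30. The sources used here do not give the age of the rats or say in words that each library comes from a separate animal. The p-values therefore take the library as the unit, and they extend to animals only if each library is a separate animal. Libraries held 13.9 to 31.4 M counts (M for mega, median 17.8 M), and 1 count was worth 0.0318 to 0.0718 CPM (counts per M counts). No 2 libraries were near-copies: the most similar pair differed by a chi-square of 2.85 per degree of freedom over genes.

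The choroid plexus is a vascular fold lined by a secretory epithelium that makes cerebrospinal fluid. It hangs in the lateral ventricle along the edge of the hippocampus, so a small amount can be carried along when the hippocampus is removed. Its epithelium is known for very high transthyretin (Ttr), which carries thyroid hormone and retinol-binding protein. Folr1 takes up folate, Aqp1 is a water channel, Clic6 belongs to the chloride intracellular channel family and Kl encodes klotho, a co-receptor for a fibroblast growth factor. Prlr is the prolactin receptor, Sostdc1 a secreted antagonist of BMP and Wnt signals, and Otx2 a homeobox factor that epithelial cells of the choroid plexus need. Enpp2 encodes autotaxin, an enzyme that makes lysophosphatidic acid, and is also a product of oligodendrocytes. In bulk tissue, more cells of a type and more RNA per cell cannot be told apart.

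Promoters are shown for the 3 members that both passed the filter on low counts and had an entry, since Ttr moved with Kl and with Aqp1 across libraries. Each is the 250 bases before the gene's start in RefSeq's annotation of the rat assembly GRCr8, on the plus strand and written 5′ to 3′. The build used for counting is not given in the sources used here, and these positions are RefSeq's alone. Promoter windows were found for 4 of the 9 members, Prlr being the other.

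Ttr, chr18:12218508-12218757: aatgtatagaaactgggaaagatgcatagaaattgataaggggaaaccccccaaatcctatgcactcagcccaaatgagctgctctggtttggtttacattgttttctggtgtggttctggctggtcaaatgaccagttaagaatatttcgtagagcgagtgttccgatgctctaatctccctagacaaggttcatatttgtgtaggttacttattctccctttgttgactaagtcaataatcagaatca
Kl, chr12:5325753-5326002: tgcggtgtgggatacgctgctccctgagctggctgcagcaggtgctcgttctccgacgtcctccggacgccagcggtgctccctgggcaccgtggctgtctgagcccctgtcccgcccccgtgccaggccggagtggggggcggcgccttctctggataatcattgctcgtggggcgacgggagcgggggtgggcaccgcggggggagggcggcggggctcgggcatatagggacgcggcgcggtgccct
Aqp1, chr4:85812534-85812783: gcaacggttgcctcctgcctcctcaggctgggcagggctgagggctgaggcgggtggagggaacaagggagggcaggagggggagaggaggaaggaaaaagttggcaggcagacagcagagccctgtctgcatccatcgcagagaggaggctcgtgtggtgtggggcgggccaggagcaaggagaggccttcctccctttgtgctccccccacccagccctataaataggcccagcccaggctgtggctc

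The windows differ in base composition, with 40.4% G and C in Ttr, 73.2% in Kl and 65.2% in Aqp1, and with 3, 27 and 5 CG pairs. The core motif of OTX2, TAATCC, was searched on both strands. It occurred in none of these 3 windows nor in the 2 windows listed for Prlr, and in 6.34% of all 33469 promoter windows of the same length. That says only that these letters are not in these windows.

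The members ranged from hardly detectable to abundant. Ttr was counted in all 30 libraries, with 12 to 869 counts and a median of 66.5. Folr1 (median 23.5 counts), Aqp1 (11.5), Clic6 (9.5) and Kl (8.0) also had at least 1 count in each library. Enpp2 had a median of 2598 counts. Prlr had 104 counts in all and was at 0 in 4 libraries, and Sostdc1 had 78 counts in all and was at 0 in 12 libraries. Otx2 had 2 counts, both in male_alzheimer_chow replicate 3, and the other 29 libraries were at 0. A count of 0 allows up to 3 counts, which is 0.0955 to 0.215 CPM over these libraries (counting error only). The first 6 of the 9 members passed the filter on low counts and were tested, while Otx2, Prlr and Sostdc1 did not pass and are described by their values.

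Ttr varied 71.4-fold between its lowest and highest library (0.764 to 54.6 CPM, median 3.78). Among males on chow, Ttr was at 4.32, 1.75, 2.59 and 4.86 CPM in wildtype replicates 4, 7, 26 and 29. In male_alzheimer_chow it was at 12.4, 2.27, 3.10 and 54.6 CPM in replicates 3, 8, 25 and 30. That group held both the highest library of the series and libraries below the median. In male_wildtype_western it was at 2.83, 6.40, 1.53 and 4.29 CPM in replicates 2, 5, 24 and 27. In male_alzheimer_western it was at 1.98, 1.14, 3.64 and 0.764 CPM in replicates 1, 6, 23 and 28. All 4 of these libraries lay below the median of the series.

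Among females, Ttr in female_wildtype_chow was at 8.44, 7.83, 8.59 and 28.2 CPM in replicates 9, 13, 15 and 20. All 4 exceeded 2 times the median of the series. In female_wildtype_western it was at 3.23, 3.92 and 7.98 CPM in replicates 12, 17 and 22. In female_alzheimer_chow it was at 7.43, 2.19, 1.42 and 5.72 CPM in replicates 10, 14, 16 and 19. In female_alzheimer_western it was at 9.04, 2.38 and 1.09 CPM in replicates 11, 18 and 21. By group median, the order of Ttr ran from female_wildtype_chow (8.51 CPM) through male_alzheimer_chow (7.73), female_alzheimer_chow (3.95), female_wildtype_western (3.92), male_wildtype_western (3.56), male_wildtype_chow (3.46) and female_alzheimer_western (2.38) to male_alzheimer_western (1.56). The ranges of every 2 neighbours in this order overlapped, but those of groups further apart did not always. All libraries of female_wildtype_chow (7.83 CPM or more) lay above all of female_alzheimer_chow (at most 7.43) and male_wildtype_western (6.40). They also lay above all of male_wildtype_chow (at most 4.86) and male_alzheimer_western (3.64).

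**Figure D1:**
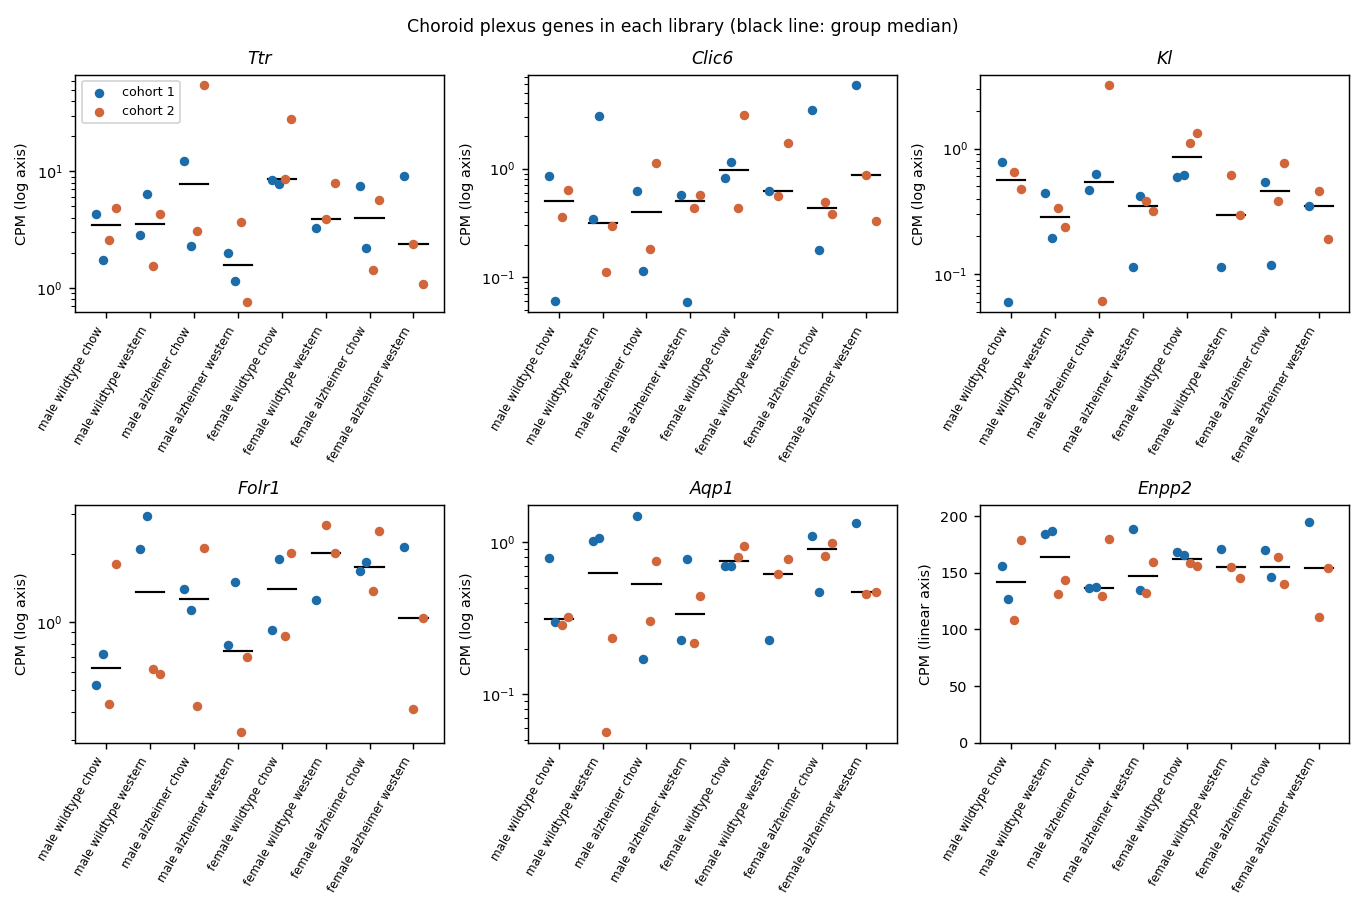
Level of 6 choroid plexus genes in each library, as CPM on log axes (linear for Enpp2), by sex, genotype and diet. Points are libraries coloured by cohort and black lines are group medians. Ttr and Clic6 have single libraries far above their group (Ttr up to 54.6 CPM, Clic6 up to 5.83 CPM), while Enpp2 stays between 108 and 195 CPM.

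Clic6 had an even wider range, 97.5-fold from 0.0598 to 5.83 CPM with a median of 0.564, although its lowest values rest on single counts. In female_alzheimer_western it was at 5.83, 0.870 and 0.332 CPM in replicates 11, 18 and 21, and in female_alzheimer_chow at 3.48, 0.178, 0.492 and 0.385 CPM in replicates 10, 14, 16 and 19. In female_wildtype_chow it was at 0.811, 1.14, 0.432 and 3.08 CPM in replicates 9, 13, 15 and 20, and in female_wildtype_western at 0.624, 0.560 and 1.73 CPM in replicates 12, 17 and 22. Each female group thus had 1 library well above the rest. Male libraries lay between 0.0598 and 1.13 CPM apart from male_wildtype_western replicate 5, which was at 3.05 CPM (63 counts).

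Kl ran from 0.0603 to 3.20 CPM (median 0.429). Its highest libraries were male_alzheimer_chow replicate 30 (51 counts, 3.20 CPM), female_wildtype_chow replicate 20 (24 counts, 1.34 CPM) and female_wildtype_chow replicate 15 (18 counts, 1.11 CPM). The first 2 of these were also the highest for Ttr. Sostdc1 followed the same pair: it had 19 counts in male_alzheimer_chow replicate 30, 17 in female_wildtype_chow replicate 20 and at most 8 elsewhere.

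Folr1 and Aqp1 were more even. Folr1 ran from 0.326 to 2.96 CPM (median 1.31), highest in male_wildtype_western replicate 5 and female_wildtype_western replicate 17. Aqp1 ran from 0.0565 to 1.501 CPM (median 0.660), highest in male_alzheimer_chow replicate 3 and female_alzheimer_western replicate 11. Enpp2 ran only from 108 to 195 CPM, a 1.80-fold range. Prlr was highest in female_wildtype_chow replicate 13, with 13 counts (0.572 CPM).

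The spread between libraries of the same group was large for these genes. The biological coefficient of variation of edgeR was 80.3% for Clic6, 64.4% for Ttr, 49.7% for Kl, 44.7% for Folr1, 43.7% for Aqp1 and 12.9% for Enpp2, against a median of 6.70% over all tested genes. Genes with few counts vary more, so each was also placed among the 500 tested genes closest to it in abundance. Ttr and Clic6 had the widest spread of their neighbourhoods (percentile 100), Folr1 stood at percentile 99.4, Enpp2 at 99.2, Aqp1 at 97.4 and Kl at 97.2.

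A library was counted as high for a gene where its CPM was more than 2 times the median of the 30 libraries, and as low where it was less than 1/2 of it. In 14 libraries no member was high, in 5 libraries 1 was, in 3 libraries 2 were, and in 8 libraries at least 3 were. Those 8 were female_alzheimer_western replicate 11 (5 members high), male_alzheimer_chow replicate 30 and female_wildtype_chow replicate 20 (4 each), and 5 libraries with 3 each. The 5 were male_alzheimer_chow replicate 3, male_wildtype_western replicate 5, female_alzheimer_chow replicate 10 and female_wildtype_chow replicates 13 and 15. They belong to both sexes, both genotypes, both diets and both cohorts, but are not spread evenly over the groups. Replicates 13, 15 and 20 are all female_wildtype_chow, and the only western libraries among them are female_alzheimer_western replicate 11 and male_wildtype_western replicate 5. None is from male_wildtype_chow, male_alzheimer_western or female_wildtype_western. The threshold means little for the members with few counts: Otx2 has a median of 0, so that its 2 counts made it high in male_alzheimer_chow replicate 3, and the medians of Prlr and Sostdc1 are 3.0 and 1.0 counts. Over the 6 tested members alone, 3 were high in each of male_alzheimer_chow replicate 30, female_wildtype_chow replicate 20 and female_alzheimer_western replicate 11. In 5 further libraries 2 tested members were high, in 3 libraries 1 was, and in 19 libraries none was. At the other end, male_wildtype_chow replicate 7 and male_alzheimer_chow replicate 25 were low for 6 members each. Ttr was high in 8 libraries, Clic6 in 7, Kl in 3, Folr1 and Aqp1 in 2 each and Enpp2 in none.

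The high libraries did not share a single profile. In male_alzheimer_chow replicate 30, the 8 members other than Enpp2 stood at 64.0 CPM of the unscaled total (95% Clopper-Pearson interval 60.1 to 68.0), against a median of 6.53 over the libraries. In female_wildtype_chow replicate 20 they stood at 36.6 (33.8 to 39.5), and in female_alzheimer_western replicate 11 they stood at 19.6 (17.5 to 21.8). Ttr made up 98.0% of the counts of Ttr and Clic6 together in male_alzheimer_chow replicate 30 (interval 96.8 to 98.8%) and 90.1% in female_wildtype_chow replicate 20 (87.4 to 92.5%). It made up only 60.8% in female_alzheimer_western replicate 11 (54.5 to 66.8%) and 68.1% in female_alzheimer_chow replicate 10 (62.9 to 73.0%), where the median over libraries was 88.8%. These intervals do not overlap between the first and the second pair of libraries. The first pair are the 2 libraries with the most Ttr and the second the 2 with the most Clic6, so this choice itself favours such a gap. The intervals cover counting error only, and the shares are of counts, not corrected for transcript length.

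How far the genes move together was measured by correlating log2 CPM over the 30 libraries, with permutation p-values (100000 resamples, two-sided) adjusted over all 36 pairs by the Benjamini-Hochberg method. Pearson's r was positive in 34 of 36 pairs, with a median of 0.29, and 10 pairs had an adjusted p under 0.05. The 2 negative pairs both involve Otx2, whose r rests on 1 library, and without it r was positive in 28 of 28 pairs.

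**Figure D2:**
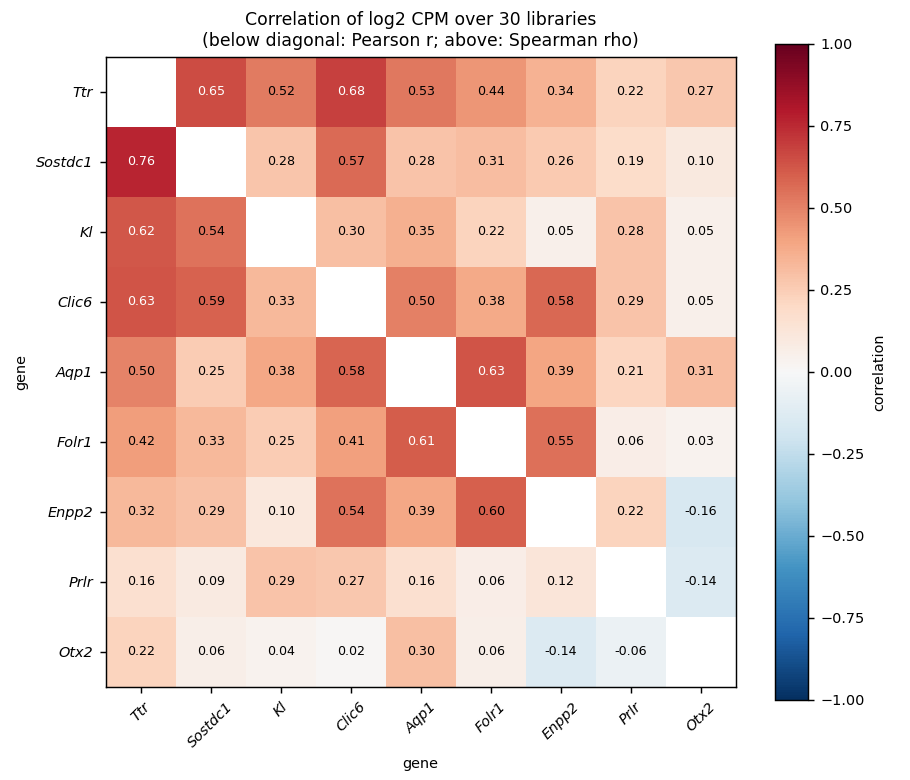
Correlation of log2 CPM over 30 libraries for each pair of the 9 genes, with Pearson's r below the diagonal and Spearman's rho above it. The highest r is that of Ttr with Sostdc1 (0.76), while Prlr has no r above 0.29 (with Kl) and Otx2 none above 0.30 (with Aqp1).

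Ttr was part of 4 of the 10 pairs. With Sostdc1 its r was 0.76 (p = 1e-05, the smallest these permutations can give, adjusted 0.00036; Spearman's rho 0.65, p = 0.00015). Leaving out the 2 libraries farthest from the median of Ttr gave 0.56, and r was 0.79 in cohort 1 and 0.76 in cohort 2. With Clic6 its r was 0.63 (p = 0.00014, adjusted 0.0025; rho 0.68, p = 5e-05), 0.62 without the 2 farthest libraries, 0.79 in cohort 1 and 0.62 in cohort 2. With Kl its r was 0.62 (p = 0.00036, adjusted 0.0033; rho 0.52, p = 0.0040), but only 0.37 without the 2 farthest libraries, 0.45 in cohort 1 and 0.73 in cohort 2. With Aqp1 its r was 0.50 (p = 0.0051, adjusted 0.018; rho 0.53, p = 0.0032), 0.51 without the 2 farthest libraries, 0.64 in cohort 1 and 0.46 in cohort 2. Ttr with Folr1 had an r of 0.42 (p = 0.021, adjusted 0.068; rho 0.44, p = 0.015) and did not pass.

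The other 6 pairs were Folr1 with Aqp1 (r 0.61, rho 0.63), Folr1 with Enpp2 (0.60, 0.55), Clic6 with Sostdc1 (0.59, 0.57), Clic6 with Aqp1 (0.58, 0.50), Kl with Sostdc1 (0.54, 0.28) and Clic6 with Enpp2 (0.54, 0.58). Their p-values ran from 0.00051 to 0.00228 and their adjusted p from 0.0033 to 0.0091. Kl with Sostdc1 passed by Pearson's r alone: its rho had p = 0.13 (adjusted 0.23), and r was 0.34 without the 2 farthest libraries. The other 5 kept an r of 0.45 to 0.60 without those libraries. In cohort 1 the r of these 6 pairs ran from 0.20 (Kl with Sostdc1) to 0.87 (Clic6 with Sostdc1), and in cohort 2 from 0.32 (Clic6 with Enpp2) to 0.69 (Kl with Sostdc1). Prlr passed with no other member, its r running from -0.058 (Otx2) to 0.29 (Kl). After taking out the means of group and cohort, 15 of 36 pairs passed. No member among the 8 tested (all but Otx2) followed the total count of the library (adjusted p 0.32 or more, over 8 relations).

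Genes named for neighbouring tissues were compared with the members in the same way, through the summed CPM of 9 lists, which made 72 relations with the 8 members other than Otx2. Ttr passed with none of the 9 lists. Its nearest was the list of ependyma and motile cilia, the lining of the ventricle (r 0.36, p = 0.048, adjusted 0.19; rho 0.48, p = 0.0077, adjusted 0.069). With the hippocampal neuron list r was -0.46 for Aqp1 (adjusted permutation p 0.085), -0.44 for Enpp2 (0.089) and -0.42 for Folr1 (0.10). The other members ran from -0.19 (Clic6) to 0.0023 (Ttr), and none passed. Aqp1 with the meninges list passed by rho (0.57, adjusted permutation p 0.019) but not by r (0.46, adjusted 0.085).

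Enpp2 followed 11 oligodendrocyte genes (Mbp, Mog, Mag and others) closely, with r 0.86 (p = 1e-05, adjusted 0.00036; rho 0.83, p = 1e-05). Without the 2 libraries farthest from the median of Enpp2, r was 0.78, and it was 0.90 in cohort 1 and 0.83 in cohort 2. The summed oligodendrocyte genes ran from 6422 to 11400 CPM. Enpp2 with Ttr had an r of 0.32 (p = 0.082, adjusted 0.16; rho 0.34, p = 0.063). Enpp2 did pass with 2 other members, Folr1 (r 0.60) and Clic6 (r 0.54), and with the ependyma list (r 0.64).

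Folr1 followed the ependyma and cilia list, with r 0.79 (p = 1e-05, adjusted 0.00036; rho 0.76, p = 1e-05), 0.71 without the 2 farthest libraries, 0.64 in cohort 1 and 0.83 in cohort 2. Aqp1 did so with r 0.60 (p = 0.00041, adjusted 0.0059; rho 0.64, p = 0.00014), 0.59 without the 2 farthest libraries, 0.66 in cohort 1 and 0.52 in cohort 2. Enpp2 with the same list had r 0.64 (p = 0.00015, adjusted 0.0027; rho 0.57, p = 0.0012), 0.52 without the 2 farthest libraries, 0.53 in cohort 1 and 0.67 in cohort 2. Folr1 also passed with the oligodendrocyte list (r 0.58, p = 0.0010, adjusted 0.012; rho 0.53, p = 0.0029; 0.46 without the 2 farthest libraries, 0.41 in cohort 1 and 0.64 in cohort 2). All 9 ependymal genes with a row passed the filter, and their sum ran from 22.1 to 47.1 CPM.

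Clic6 was the member that moved with the 8 genes listed for the thalamus, with r 0.71 (permutation p = 3e-05, adjusted 0.00072). Its rho was 0.43 (p = 0.018, adjusted 0.091), r was 0.54 without the 2 libraries farthest from the median of Clic6, 0.78 in cohort 1 and 0.48 in cohort 2. The summed thalamic genes were highest in female_alzheimer_chow replicate 10 (109.98 CPM), female_alzheimer_western replicate 11 (109.45), male_wildtype_western replicate 5 (92.5) and female_wildtype_chow replicate 20 (87.8), against a median of 73.7 CPM. These are the 4 libraries with the most Clic6. Of the thalamic genes, Calb2 (calretinin) reached 30.2 CPM in female_alzheimer_western replicate 11 over a median of 8.75, and Prkcd reached 17.2 CPM in female_alzheimer_chow replicate 10 over a median of 7.73. Slc17a6, a vesicular glutamate transporter, was also highest in that library, at 17.8 CPM over a median of 12.7. The other 5 thalamic genes were each highest outside the 4 libraries with the most Clic6: Tcf7l2, the usual marker of thalamic neurons, in male_wildtype_chow replicate 26 (9.42 CPM over a median of 8.05), Lef1 in female_alzheimer_chow replicate 19, Plekhg1 in female_wildtype_western replicate 22, Rgs16 in male_wildtype_chow replicate 7 and Gbx2, with 11 counts in all, in male_wildtype_western replicate 2. In male_alzheimer_chow replicate 30, the library with the most Ttr, the thalamic genes summed to 70.8 CPM, below the median. The part of cells from outside the hippocampus in these values was not tested.

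**Figure D3:**
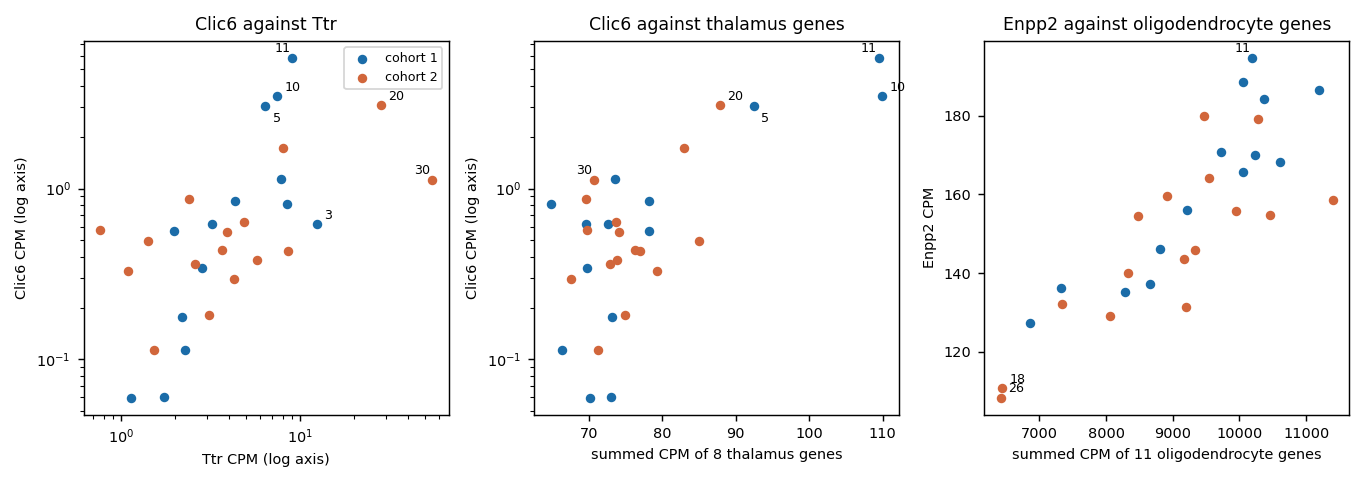
Each point is 1 of 30 libraries, coloured by cohort, with some replicate numbers written beside the points: Clic6 against Ttr in CPM (both log axes), Clic6 (log axis) against the summed CPM of 8 thalamus genes, and Enpp2 against the summed CPM of 11 oligodendrocyte genes (linear axes). Replicate 30 stands far right for Ttr without the highest Clic6, replicates 10 and 11 are highest for thalamus genes and Clic6, and Enpp2 climbs with the oligodendrocyte genes (r 0.86 on log2 values).

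A further 34 genes known from choroid plexus epithelium were listed, of which 32 had a row and 27 were tested. Of the 27, 22 had a positive r with Ttr and their median r was 0.25, beside a median of 0.0042 and 50.7% positive over all 12547 tested genes. These r are given as a description. The highest were those of F5 (coagulation factor V, 0.72), Ace (angiotensin-converting enzyme, 0.67), Mfrp (0.60), the bicarbonate transporter Slc4a5 (0.53), the keratin Krt8 (0.51) and the anion exchanger Slc4a2 (0.47). F5 was highest in male_alzheimer_chow replicate 30, at 2.20 CPM over a median of 0.140, and so were Ace (13.8 over 8.27 CPM) and Slc4a5 (1.26 over 0.499 CPM). Mfrp was highest in female_alzheimer_western replicate 11 (3.68 CPM over a median of 1.34) and had a higher r with Clic6 (0.83) than with Ttr.

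The lowest r with Ttr among the tested genes were those of the tight-junction gene Cldn1 (-0.40), the zinc transporter Slc39a4 (-0.13), the carbonic anhydrase Ca12 (-0.039) and Igfbp2 (-0.030). Ca12 had an r of -0.53 with Clic6. Among the listed genes that did not pass the filter, Kcnj13, a potassium channel, was at 0 in 2 libraries. It was at most 1.12 CPM, in female_wildtype_chow replicate 20 (r 0.38 with Ttr). Tmem72 was at 0 in 12 libraries and reached 1.38 CPM in male_alzheimer_chow replicate 30 (r 0.51). Steap1 was highest in male_alzheimer_chow replicate 3 (r 0.50) and Col8a1 in male_wildtype_chow replicate 4 (r 0.40). Slco1a5 went the other way, with r -0.21 and its highest value in male_wildtype_chow replicate 7.

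Genes close to the mean z score of the 9 members were sought over all tested genes outside the choroid lists, by Pearson's r over 30 libraries. Otx2 and Enpp2 entered this mean with the same weight as the other members. The 20 closest had r from 0.63 to 0.70 and were Ccdc40 (0.70), Acaa2, Mr1, Serping1, Mpzl2, Rasl12, Cdk18, Enkur, Cybrd1, Mrc2, Sned1, Aox1, RGD1359634, Six3, Vim, Prkcq, Zic4, Irak4, Zic1 and Slc25a21 (0.63). With Ttr alone, the r of these 20 genes ran from 0.34 (Enkur) to 0.65 (Rasl12). Vim, an intermediate filament gene, ran from 34.7 to 78.1 CPM. Mpzl2 and the transcription factor genes Six3, Zic4 and Zic1 had the highest maximum over their median, 9.48, 10.3, 3.80 and 2.94 times. Six3 was at 3.50 CPM in female_alzheimer_western replicate 11 over a median of 0.342, Mpzl2 at 2.74 over 0.289 and Zic4 at 4.67 over 1.23, all in that library. Zic1 was highest in female_alzheimer_chow replicate 10, at 18.8 CPM over a median of 6.39.

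Whether the members differed between the study's groups was tested with edgeR's quasi-likelihood F test on the whole table, adjusted over 12547 genes by the Benjamini-Hochberg method, with a call at an adjusted p under 0.05. Asked for any difference among the 8 groups, 1 of 6 tested members was called, beside 3.74% of all tested genes. The called gene was Ttr (unadjusted p = 0.00082, adjusted p = 0.0308 in edgeR). The call of Ttr was lost with limma-voom (adjusted p = 0.099), with robust edgeR (0.160), in cohort 1 alone (0.375) and in cohort 2 alone (0.0683), but DESeq2 gave 0.0208. It was also lost without male_alzheimer_chow replicate 30 and female_wildtype_chow replicate 20, the 2 libraries with the most Ttr (0.318), and without male_alzheimer_chow replicate 3 (0.0501) or male_alzheimer_western replicate 28 (0.0520). Kl had an adjusted p of 0.192 and was called only without male_alzheimer_chow replicate 25 (0.0295).

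Genotype left the members without a call. None of 6 was called for alzheimer minus wildtype, beside 8.03% of all tested genes, and none had an unadjusted p under 0.05. DESeq2 and limma-voom called none either. The log2 differences were -0.11 ± 0.38 for Ttr (SE, adjusted p = 0.910), -0.23 ± 0.26 for Folr1, 0.028 ± 0.36 for Kl, -0.094 ± 0.47 for Clic6, 0.17 ± 0.30 for Aqp1 and -0.036 ± 0.068 for Enpp2 (adjusted p of the last 5 from 0.664 to 0.979). In CPM, Ttr was at 7.27 ± 13.5 in alzheimer and 6.45 ± 6.48 in wildtype libraries (SD, n = 15 each), with medians of 2.38 and 4.32, so its mean and its median differ in direction. Without the 3 libraries with the highest mean z score (male_alzheimer_chow replicates 30 and 3 and female_alzheimer_western replicate 11), Ttr was called lower in alzheimer, at -1.12 (edgeR adjusted p = 0.0211). All 3 libraries left out there are alzheimer libraries with high Ttr, so this fit lowers the alzheimer side by its construction. Replicate 3 has rank 3 through the 2 counts of Otx2, and rank 8 when Otx2 is left out of the mean. With female_wildtype_chow replicate 20 left out in its place, an alternative chosen after seeing the data, Ttr was at -0.65 (edgeR adjusted p = 0.174) and no member was called for genotype.

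For diet, none of 6 members was called in edgeR, DESeq2 or limma-voom, beside 0.00797% of all tested genes in edgeR (1 gene). Kl was at -1.13 ± 0.35 (western minus chow, log2 ± SE, unadjusted p = 0.00275, adjusted p = 0.822 in edgeR) and Ttr at -1.14 ± 0.38 (unadjusted p = 0.00543, adjusted p = 0.822), the 2 members with an unadjusted p under 0.05. Ttr was at 9.73 ± 13.6 CPM in 16 chow and 3.59 ± 2.58 CPM in 14 western libraries, with medians of 5.29 and 3.03, and the 2 diets overlapped. Kl was at 0.738 ± 0.742 CPM on chow and 0.319 ± 0.142 on western. Without the 2 libraries with the most Ttr, both of which are chow libraries, the log2 difference was -0.52 for Ttr and -0.71 for Kl. The other 4 lay between -0.21 (Aqp1) and 0.27 (Clic6).

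**Figure D4:**
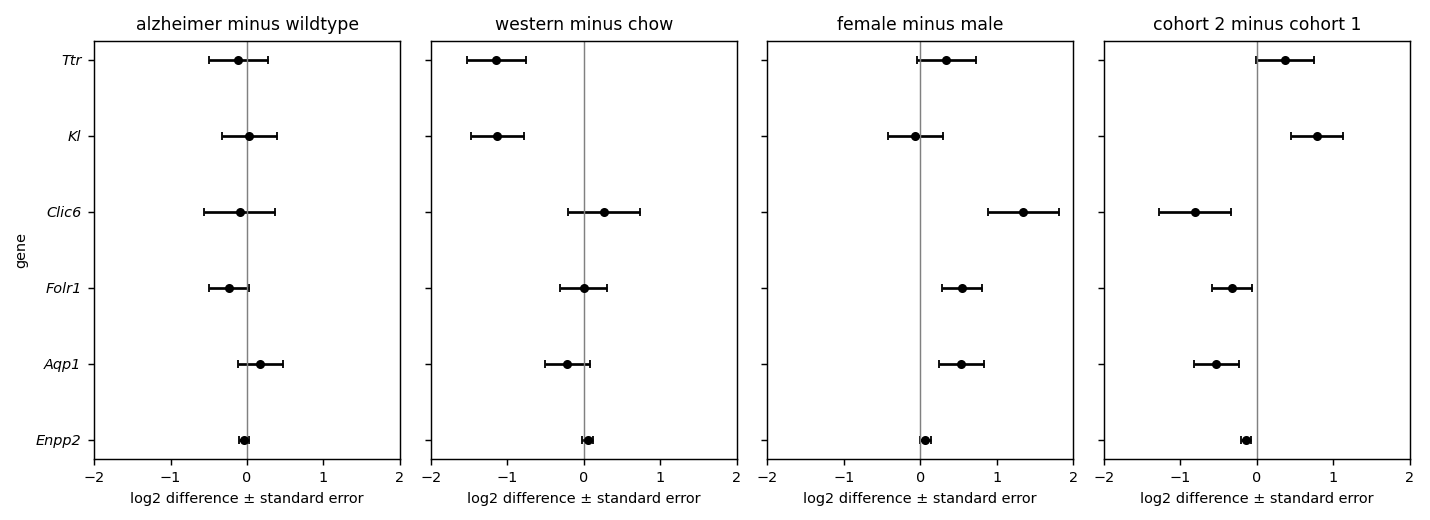
Log2 difference ± standard error from edgeR for the 6 tested genes, for genotype, diet, sex and cohort, over 30 libraries. None of these 24 values was called, and those farthest from 0 are Clic6 by sex (1.35), Ttr by diet (-1.14) and Kl by diet (-1.13).

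For sex, none of 6 members was called in edgeR, DESeq2 or limma-voom, beside 0.837% of all tested genes in edgeR. Clic6 was at 1.35 ± 0.46 (female minus male, log2 ± SE, unadjusted p = 0.00647, adjusted p = 0.146) and Folr1 at 0.54 ± 0.26 (0.0469, adjusted 0.330). In CPM, Clic6 was at 1.42 ± 1.63 in 14 female and 0.587 ± 0.723 in 16 male libraries (SD), and the sexes overlapped. Clic6 was called when no filter on low counts was set (adjusted p = 0.0340) and without male_wildtype_western replicate 5, the highest male library (1.78, adjusted p = 0.0479). Without female_alzheimer_western replicate 11 the difference was 0.90. The thalamic genes summed to 109.98 and 109.45 CPM in the 2 female libraries highest in Clic6. By sex, their median sums were 75.6 CPM in females and 72.1 CPM in males, 0 of the 7 tested were called, and their part in the difference of Clic6 was not tested.

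Between cohorts (cohort 2 minus cohort 1), none of 6 members was called, beside 0.0877% of all tested genes, and 2 had an unadjusted p under 0.05 in edgeR: Kl at 0.78 ± 0.34 (adjusted p = 0.328) and Enpp2 at -0.14 ± 0.068 (adjusted p = 0.389). Limma-voom called none of the 6, and DESeq2, which gave an adjusted p for Enpp2 alone, did not call it. Over all genes, the number called for cohort ran from 0 to 43 (without female_alzheimer_chow replicate 16) when 1 library was left out, beside 11.

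The contrasts within a sex and the interactions gave no call among the 6 members in edgeR, DESeq2 or limma-voom, although DESeq2 gave an adjusted p to only 3 of them for genotype in females and 2 for diet in males. The background was 1.25% of all tested genes for genotype in males, 2.57% for genotype in females, 0.128% for diet in males, 0.183% for diet in females, 1.23% for diet by sex, and 0% for genotype by diet, genotype by sex and all 3 factors. These backgrounds moved when 1 library was left out. The genes called then ran from 97 (without male_wildtype_chow replicate 4) to 311 (without male_alzheimer_chow replicate 8), beside 157, for genotype in males, and from 164 (without female_wildtype_western replicate 17) to 356 (without male_alzheimer_chow replicate 8), beside 322, for genotype in females. They ran from 9 (without male_alzheimer_western replicate 1) to 53 (without male_alzheimer_western replicate 28), beside 16, for diet in males, and from 1 (without female_wildtype_chow replicate 9) to 36 (without female_alzheimer_chow replicate 14), beside 23, for diet in females. For diet by sex they ran from 79 (without female_wildtype_western replicate 12) to 249 (without male_alzheimer_chow replicate 8), beside 154. The members with an unadjusted p under 0.05 in edgeR were Ttr (-1.48 ± 0.55, adjusted p = 0.292) and Kl (-1.17 ± 0.48, adjusted p = 0.354) for diet in males, Kl for diet in females (-1.08 ± 0.51, adjusted p = 0.501), Folr1 for genotype by diet (-1.28 ± 0.52, unadjusted p = 0.0192) and Ttr for all 3 factors (4.60 ± 1.53, adjusted p = 0.932). The last is the difference between the sexes in how the diet difference depends on genotype, and male_alzheimer_chow holds replicate 30.

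Of the 27 further choroid plexus genes tested, 2 were called for genotype, both lower in alzheimer, which is near the 8.03% of all tested genes. None was called for diet or sex, beside 0.00797% and 0.837% of all tested genes. Their median log2 difference for genotype was 0.026, beside 0.0020 over all tested genes. The called genes were Slc4a2 (-0.18 ± 0.047, edgeR adjusted p = 0.0150) and Slc22a8, an organic anion transporter (-0.17 ± 0.046, adjusted p = 0.0146). Both differences are small, and the r of Slc22a8 with Ttr was 0.065. Neither was called in cohort 1 alone (edgeR adjusted p 0.734 and 0.509), and Slc22a8 was not called in cohort 2 alone (0.0719). Slc4a2 ran from 32.8 to 49.7 CPM and Slc22a8 from 13.6 to 21.1 CPM, ranges of only 1.51-fold and 1.55-fold. Of 8 listed endothelial genes, 3 were called lower in alzheimer and 0 had a positive log2 difference for genotype (median -0.092). Which cells the RNA of Slc4a2 and Slc22a8 came from was not tested. For sex (female minus male, pooled over genotype and diet), the 27 further genes had a median log2 difference of 0.083, with 19 of 27 positive. That median was 0.44 for the 6 tested members and 0.28 for the 9 ependymal genes, with 0 called in either set. Over all tested genes it was -0.0024.

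The fit was repeated with the mean z score of the 9 members as a covariate. Genes called for genotype then numbered 1053 instead of 1007, with 979 in common (97.2% of the former list and 93.0% of the latter). For diet, 1 gene was called in both fits. For sex the number went from 105 to 29, with 26 in common (24.8% of the list without the covariate and 89.7% of the list with it). The 6 tested members, which enter this covariate, themselves had a median log2 difference of 0.44 by sex, with 0 called. Among them, Enpp2 followed the oligodendrocyte genes (r 0.86). The cause of the lower sex count was not tested. With the log2 CPM of Ttr alone as the covariate, 1010 genes were called for genotype (895 in common), 2 for diet (1 in common) and 38 for sex (37 in common). The sex count also moved when single libraries were left out, from 19 without female_alzheimer_western replicate 11 to 181 without female_wildtype_chow replicate 9. Without the 3 libraries with the highest mean z score, 29 genes were called for sex (26 in common) and 558 for genotype (528 in common). With the 3 libraries chosen by the mean without Otx2 (replicates 30, 11 and 20), 23 were called for sex (22 in common) and 834 for genotype (727 in common). With the mean z score without Otx2 as the covariate, 1052 were called for genotype, 1 for diet and 26 for sex. Without the 2 libraries with the most Ttr, 127 were called for sex (87 in common) and 929 for genotype (853 in common).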

How the data were processed

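Per the labels' protocols, RNA was taken from snap-frozen dorsal hippocampus with a column kit for lipid-rich tissue, enriched for polyA RNA and prepared with NEB Ultra II. Per the submitters' processing notes, cutadapt and STAR 2.7.0a were used. How reads were assigned to genes, with which annotation, build and strand setting, is not given in the sources used here. The authors deposited whole-number counts per gene symbol, 1 column per library, with no scaling. Without a strand setting, reads of a gene and of an overlapping antisense gene cannot be told apart.

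Counts were fitted in R 4.3.3 with edgeR 4.0.16 (glmQLFit and glmQLFTest): 1 coefficient per group plus cohort, TMM factors, filterByExpr with a minimum count of 10 and total of 15, 12547 genes kept, two-sided tests of 13 contrasts and Benjamini-Hochberg adjustment over all kept genes. Standard errors are the difference over the root of F. CPM used TMM library sizes, and log2 CPM a prior count of 1. Correlations used scipy 1.17.1 and numpy 2.4.6 with 100000 permutations. The z score of a gene is its log2 CPM centred and scaled over 30 libraries, and all 9 members entered the mean. Scripts were tested on simulated data. Alternatives were DESeq2 1.42.0, limma-voom (limma 3.58.1) with quality weights, robust edgeR, other filters and size factors, a prior count of 0.25, no cohort term, each cohort alone and leaving out libraries. Leaving out the 2 libraries with the most Ttr, the settings without Otx2, and the count of high libraries over tested members alone were added after seeing the data.

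The members, lists and tests were chosen with earlier results of these data known. The named genes are the members, listed choroid genes that were called, the 6 highest and 4 lowest in r with Ttr, and the 20 genes closest to the mean z score. The thalamic genes, Kcnj13, Tmem72, Steap1, Col8a1, Slco1a5 and the oligodendrocyte examples were named after their values were seen. A gene fixed for the oligodendrocyte list is not reported here and was left out of its sum.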

Additional observations from a re-analysis of the deposited data

Results flagged for a closer look

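In 49 sets of 4 libraries (1 gene in 1 group), the highest or lowest library was compared with the rest by its gap over the whole range of the set against Dixon's 95% critical value. For normally distributed values chance passes about 1 in 20 sets, and 8 passed. CPM of genes with few counts is not so distributed, and a set with only 1 library above 0 passes by construction. The 8 are therefore only listed, and their number cannot be compared with chance. Ttr in female_wildtype_chow had a ratio of 0.928, with replicate 20 at 28.2 CPM and the others between 7.83 and 8.59. Clic6 in male_alzheimer_western had 0.854, with replicate 6 lowest at 1 count and the others at 0.435 to 0.573 CPM. Aqp1 in male_wildtype_chow had 0.899, with replicate 4 highest at 0.786 CPM (12 counts) and the others at 0.288 to 0.320. Prlr in female_alzheimer_chow had 0.838, with replicate 14 lowest at 1 count and the others at 0.273 to 0.348 CPM. The other 4 each had a ratio of 1.0 because only 1 library of the set had any count. They are Otx2 in male_alzheimer_chow replicate 3 (2 counts) and Sostdc1 in female_alzheimer_chow replicate 10 (8 counts), male_alzheimer_western replicate 23 (1 count) and male_wildtype_chow replicate 29 (1 count). Ttr in male_alzheimer_chow replicate 30, the highest value of the series, did not pass, since replicate 3 of that group was high as well.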

How the results depend on the processing

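No paired analysis was possible because the replicate numbers run on through the series and no 2 groups share one. Median counts of 8.0 to 11.5 for Kl, Clic6 and Aqp1, and fewer for Prlr, Sostdc1 and Otx2, limit their precision. The cause of each change below was not tested unless the setting itself shows it. Of 1306 values of single genes under alternatives, 1221 kept direction and side of the threshold. Most of these alternatives left out only 1 of the 30 libraries, and most of these results were not called in the main fit. Both favour such agreement. The number of members called became 1 for genotype and 1 for genotype in females without the 3 libraries with the highest mean z score, and 1 for sex with no filter. For any difference among groups it became 0 with limma-voom, 0 with robust edgeR, 0 in cohort 1 alone, 0 in cohort 2 alone, 0 without the 2 libraries with the most Ttr and 0 without the 3 libraries highest in the mean z score without Otx2. Leaving out single libraries gave 0 to 1 for sex and 0 to 2 for any difference. Pairs that passed numbered 4 in cohort 1 alone (14 libraries) and 7 in cohort 2 alone, beside 10, 9 to 12 without single libraries, and 6 without the 3 libraries highest in the mean without Otx2. Libraries with at least 3 members high numbered 2 at 3 times the median and 3 over the 6 tested members alone, beside 8. Genes called for sex numbered 105 without the mean z score as covariate, and for diet 2 with Ttr as covariate. Over all genes, those called for genotype (1007) numbered 72 in cohort 1 alone, 573 in cohort 2 alone and 558 without the 3 libraries with the highest mean z score. Those called for sex (105) numbered 254 with no filter, 241 with DESeq2, 205 with limma-voom, 17 in cohort 2 alone and 29 without those 3 libraries. For any difference among groups (469) they numbered 863 with no filter, 1049 with DESeq2, 838 with limma-voom, 108 in cohort 1 alone and 96 in cohort 2 alone. For cohort (11) they numbered 113 with no filter, 137 with DESeq2, 5 with limma-voom and 0 without the 2 libraries with the most Ttr.

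Log2 differences that changed sign, none of them called under either setting, were these. In cohort 1 alone, genotype gave 0.14 for Ttr, 0.23 for Folr1 and 0.40 for Clic6, and sex gave -0.099 for Aqp1. In cohort 2 alone, diet gave -0.75 for Folr1, -0.47 for Clic6 and -0.10 for Enpp2, and sex gave -0.022 for Ttr and 0.055 for Kl. Without the 3 libraries with the highest mean z score, genotype gave -0.38 for Kl and -0.34 for Aqp1, diet 0.022 for Aqp1 and sex 0.295 for Kl. Without the 2 libraries with the most Ttr, genotype gave -0.25 for Kl, sex 0.26 for Kl and cohort -0.39 for Ttr. Without the 3 libraries highest in the mean without Otx2, genotype gave -0.28 and sex 0.22 for Kl, and cohort -0.13 for Ttr. Limma-voom gave -0.30 for Kl by genotype and 0.19 for Kl by sex, and for Folr1 by diet DESeq2 gave -0.018 and the fit with no cohort term -0.00078.

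Leaving out single libraries gave, for genotype, -0.54 (without male_alzheimer_chow replicate 30) to 0.037 for Ttr, -0.29 to 0.18 for Kl, -0.47 to 0.38 for Clic6 and -0.078 to 0.0069 for Enpp2. For diet it gave -0.15 to 0.21 for Folr1 and -0.19 to 0.67 for Clic6. For sex it gave -0.038 to 0.76 for Ttr and -0.21 to 0.29 for Kl, and for cohort -0.13 to 0.66 for Ttr.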
